A study of Mus musculus with 6 samples.

Results

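The nuclear genes of the last steps of oxidative phosphorylation, those for respiratory complexes III and IV, for cytochrome c and for the ATP synthase, were followed in cones of the rd1TN-XL mouse treated with the histone deacetylase inhibitor trichostatin A (TSA). The genes were chosen by symbol: every row of the count table whose symbol begins with Uqcr, with Cox and a digit from 4 to 8, or with Atp5, except names holding -ps, and also Cyc1 and Cycs. This gave 46 of the 46078 rows, under 45 symbols: 10 for complex III, 1 for cytochrome c, 18 for complex IV and 17 for the ATP synthase. A second row with the symbol Uqcrc1 held 0 counts in every library and is not described further.

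The background of the mice was a C57BL/6J x C3H line with the HR2.1:TN-XL transgene, combined with rd1. They carry the rd1 mutation of the rod gene Pde6b, by which the rods die, and the calcium biosensor TN-XL, which the human red opsin promoter HR2.1 drives in cones. Both treatment groups had both alleles, so that neither group holds cones of a retina with its rods. Retinas with the pigment epithelium were explanted at PN19 and kept in culture for 7 days, up to PN26, with 10 nM TSA (an inhibitor of class I and II histone deacetylases) or with its solvent DMSO as the control, and TN-XL-positive cones were then sorted. Each group had 3 libraries, described as independent biological replicates, each made of 2000 to 5000 cells from at least 2 explants of different animals. A time label of the samples gives PN29 to PN31 for the TSA libraries and PN26 to PN28 for the controls. Were that label right, the treatment could not be told apart from age.

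Complex III passes electrons from ubiquinol to cytochrome c, and complex IV passes them on to oxygen. Both pump protons across the inner mitochondrial membrane, and the ATP synthase lets them flow back through its rotating ring to make ATP. Photoreceptors are known for a high demand for ATP and for mitochondria packed into the ellipsoid of the inner segment. Most subunits are encoded in the nucleus, and a few, among them the catalytic core of complex IV, in the mitochondrial genome.

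The libraries held 9135389 to 13650676 counts in genes. The unit used below is CPM, counts scaled to a total of 1e6 by the library total adjusted with the TMM method of edgeR. For the numbers of genes over 1 CPM and the filters on low counts, the library total was used without that adjustment. TSA replicates 1 to 3 had 10795, 9100 and 6974 genes over 1 CPM, against 6838, 8837 and 6690 in control replicates 1 to 3. All 11 listed cone markers had at least 10 counts in every library, and the 5 erythrocyte markers were at or near 0. The 10 listed rod markers were uneven. The rod factors Nrl and Nr2e3 had at most 1 count in any library, whereas Gngt1, Sag, Pde6g and Pdc made up nearly all of a sum of 10820, 16405 and 16197 CPM in TSA replicates 1 to 3, against 30188, 16741 and 18580 CPM in the controls (log2 ratio -0.59), with 4, 6 and 5 of the 10, against 5, 5 and 4, at 10 counts or more. Gngt1, the gamma subunit of rod transducin, was the largest of them, with 5585, 8326 and 9988 CPM in TSA replicates 1 to 3, against 18461, 12342 and 13335 CPM in the controls (log2 fold change -0.89, unadjusted p = 0.0156, adjusted p = 0.405 by edgeR). The 10 bipolar markers summed to 2772, 1056 and 1185 CPM in TSA replicates 1 to 3, against 2201, 1094 and 823 CPM in the controls, with 10, 9 and 6 of them, against 9, 9 and 8, at 10 counts or more. TSA replicate 1 stood apart. The 10 listed Müller glia markers summed to 12543, 725 and 849.7 CPM in TSA replicates 1 to 3, against 1544, 892 and 1435 CPM in the controls, and 10, 7 and 8 of them, against 8, 8 and 4, had at least 10 counts. The 10 microglia markers summed to 1690, 159.5 and 80.3 CPM in TSA replicates 1 to 3, against 177, 165 and 0.964 CPM in the controls, with 9, 2 and 1 of them, against 2, 2 and 0, at 10 counts or more, and Tmem119 at 3 counts or fewer throughout. Of the 3 microglia markers tested, 2 had a log2 fold change above 0 and 1 below. C1qb was not confined to TSA replicate 1. It had 446, 104 and 80.2 CPM in TSA replicates 1 to 3, against 0 in every control (unadjusted p = 0.000475, adjusted p = 0.405 by edgeR). The 9 pigment epithelium markers summed to 79.6, 57.5 and 287 CPM in TSA replicates 1 to 3, against 221, 289 and 133 CPM in the controls. Of the 2 tested, Dct had all TSA libraries below all controls (beside 3.7% of all genes tested; unadjusted p = 0.0805 by edgeR), and Ttr overlapped. The 10 amacrine, horizontal and ganglion markers summed to 12.7, 1.65 and 1.23 CPM in TSA replicates 1 to 3, against 22.8, 24.2 and 0.789 CPM in the controls (log2 ratio -1.62). Of these 10 only Slc32a1 was tested, and it went the other way, with 46, 15 and 5 counts in TSA replicates 1 to 3, against 1, 0 and 2 in the controls (unadjusted p = 0.0118, adjusted p = 0.405 by edgeR). The part of any of these markers in the values below was not tested, but the median difference and the ratios of summed levels are also given without TSA replicate 1.

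Transcripts of the 46 rows took up a large share of all counts and were dominated by short transcripts. The median level per kb of a reference transcript was 3348 CPM per kb over the 32 genes with a reference transcript under 1000 bases and 229 CPM per kb over the 13 of 1000 bases or more. The share of the 46 rows was 5.87, 6.93 and 10.0% in TSA replicates 1 to 3, against 10.3, 6.82 and 9.02% in control replicates 1 to 3, with 95% Wilson intervals at most 0.033 percentage points wide, which cover counting error only since PCR copies were not told apart. Averaged over the 6 libraries, the highest levels per kb were those of Uqcrq in complex III (17665 CPM per kb), Cox8a in complex IV (14680 CPM per kb) and Atp5k in the ATP synthase (12842 CPM per kb). The lowest in each complex, among the genes that passed the filter on low counts, were Uqcrc2 (94.6 CPM per kb), Cox7a1 (41.1 CPM per kb) and Atp5sl (9.79 CPM per kb). 42 of the 46 rows passed that filter (over 1 CPM in at least 2 libraries of a group). The other 4 were Cox4i2, with 5, 0 and 11 counts in the TSA libraries and 0 in every control library, and Cox7b2, Cox8c and the second Uqcrc1 row, all at 0. Many of these genes have near-identical processed pseudogenes, to which reads could be lost or from which they could be gained. The 6 rows of such names holding -ps took 0.00603 to 0.00962% of the counts of a library. Pseudogenes under other names were not looked up, so this share does not measure how many reads were lost or gained.

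No gene of the 3 complexes was called as changed by TSA. In a two-sided edgeR quasi-likelihood test, 0 of 42 genes passed an adjusted p under 0.05 (Benjamini-Hochberg over the 9621 genes tested, of which 0 genes, or 0.0%, passed), and the smallest adjusted p was 0.611. At an unadjusted p of 0.05 or less, 0 of 42 were higher and 0 lower, beside 8.02% of all genes tested higher and 2.3% lower. Among the 1631 genes with a mean of at least 100 CPM, which have a spread closer to that of these genes, the shares were 0.797% higher and 0.613% lower. DESeq2, which gave a p to all 42 and to 8984 of the 9621 genes, called 0 of 42 at either threshold, although it called 856 of the 8984 (9.53%) at an adjusted p under 0.05, and at the unadjusted threshold 11.4% were higher and 4.26% lower. The TSA libraries were all above all control libraries for 1 gene, Atp5b, and all below them for none, beside 6.39% and 3.7% of all genes tested and 3.19% and 3.37% of the genes of at least 100 CPM. In these bulk samples, fewer cells of a type and less RNA per cell cannot be told apart.

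The fitted differences were nevertheless mostly on one side of 0. The log2 fold change of TSA over control was below 0 for 32 of 42 genes (76.2%, against 49.1% of all genes tested and 56.8% of those of at least 100 CPM), and 28 to 32 were below 0 under the other scalings of the libraries. Its median was -0.31, against 0.03 over all genes tested and -0.10 over those of at least 100 CPM. Single libraries moved these values. Without TSA replicate 3, the median was -0.72 and 10 genes had an unadjusted p of 0.05 or less and a negative difference (Atp5e, Atp5j2, Atp5k, Cox4i1, Cox6a2, Cox6c, Cox7a2, Uqcr10, Uqcrh and Uqcrq), beside 1.5% of all genes and 1.94% of the other genes of at least 100 CPM. The TSA libraries left were all below the controls for 15 genes, beside 8.98% of all genes and 15.6% of the other genes of at least 100 CPM. Without control replicate 2 this held for 8 genes, beside 9.55% and 15.7%. Without control replicate 1 the median was -0.05, without control replicate 2 it was -0.57 with 1 gene lower (Cox8b, beside 1.93% of all genes and 1.63% of the others of at least 100 CPM), without TSA replicate 1 it was -0.12, and without TSA replicate 2 it was -0.18. The other genes of at least 100 CPM moved too. Their median was -0.34 without TSA replicate 3, 0.05 without control replicate 1, -0.24 without control replicate 2, -0.03 without TSA replicate 1 and -0.06 without TSA replicate 2. Of the 42 genes, 24 were below 0 without control replicate 1 and 36 without TSA replicate 3. The median standard error of a log2 fold change was 0.50 for these genes and 1.81 for all genes tested, and 34 of the 42 differences were smaller than their own standard error.

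**Figure D1:**
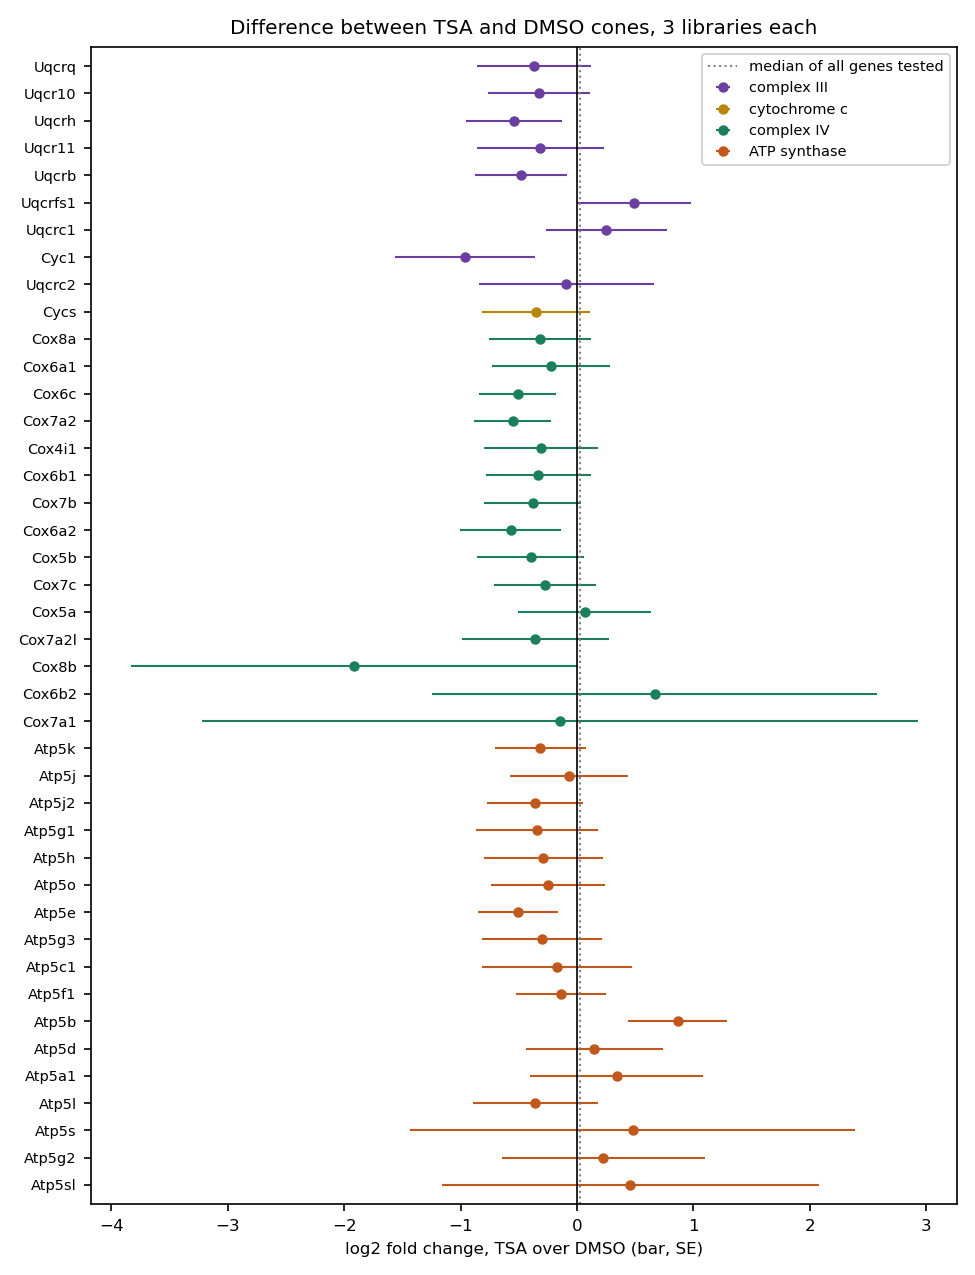
Log2 fold change of TSA over control for the 42 genes tested (x axis, bars give the standard error of the edgeR fit, 3 libraries each), by complex and, within it, by mean level. 30 of the 42 points lie between 0 and -0.6, whereas Atp5b lies at 0.87 and the isoform genes with a library at 0 counts (Cox8b, Cox6b2, Cox7a1) have bars of 1.91 to 3.07.

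The levels differed more between libraries of a group than between the groups. The summed level of all 46 rows was 51275, 62784 and 112191 CPM in TSA replicates 1 to 3, against 126937, 57944 and 97046 CPM in control replicates 1 to 3. Thus TSA replicate 3 and control replicates 1 and 3 were high, TSA replicates 1 and 2 and control replicate 2 were low, and each of these sets of 3 libraries holds both treatments. The TMM factors were 0.811 to 0.929 in the 3 high libraries and 1.103 to 1.177 in the 3 low ones, so the scaling widened this split. In the unscaled share of counts the same libraries were high, at 9.02 to 10.3% against 5.87 to 6.93%. The 3 high libraries were those with the fewest genes over 1 CPM (6690 to 6974, against 8837 to 10795 in the 3 low ones). The summed level of the 11 cone markers was 26517, 46212 and 41509 CPM in the TSA libraries, against 66049, 27405 and 42955 CPM in the controls, likewise highest in control replicate 1 and low in TSA replicate 1 and control replicate 2, but not low in TSA replicate 2. A single marker, Opn1sw, had 9738 CPM in TSA replicate 2, against 455 to 2103 CPM in the other libraries. Among the 38 genes above 0 in every library, control replicate 1 was the highest library for 26, TSA replicate 1 the lowest for 18 and control replicate 2 the lowest for 10. Whether the number of genes detected has a part in these levels was not tested.

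**Figure D2:**
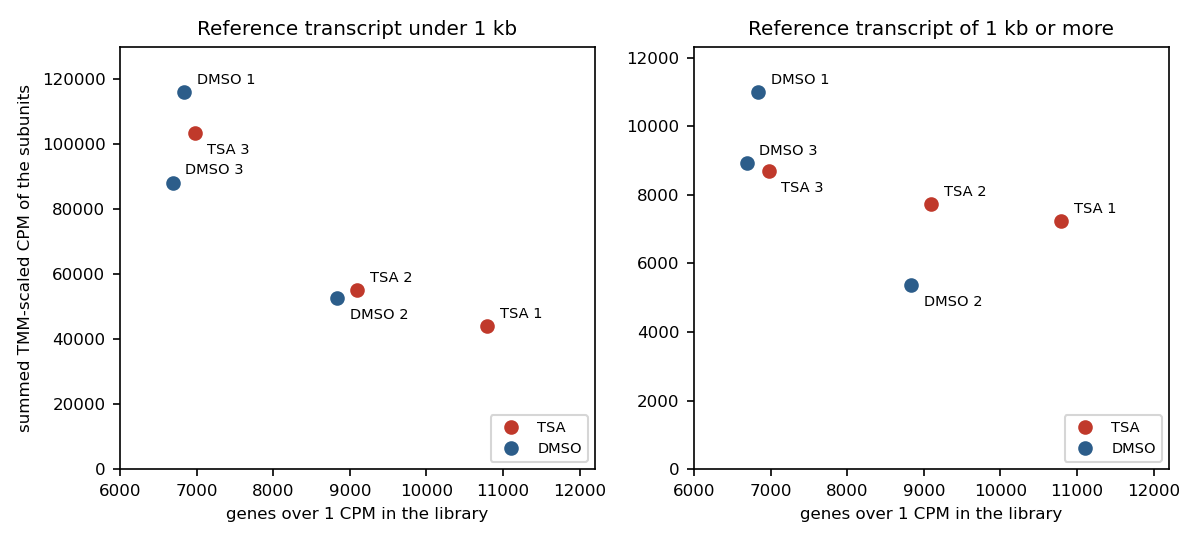
Summed TMM-scaled CPM of the genes with a reference transcript under 1 kb (left) and of 1 kb or more (right), for each library (points, red TSA and blue control), against the number of genes over 1 CPM in that library. On the left the 3 libraries with 6974 genes or fewer lie at 88116 CPM or more and the other 3 at 55055 CPM or less, with both treatments in each set, whereas on the right the values span 5376 to 10998 CPM.

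The genes varied together over the libraries. Over the 6 libraries the median Pearson correlation between pairs of the 38 genes was 0.70 (703 pairs), against 0.10 between pairs of 1511 other genes of at least 100 CPM that were above 0 in every library. The correlation was 0.88 among the 26 with a reference transcript under 1000 bases and 0.04 among the 12 with a longer one, and all pairs share the libraries and their depth. This division by length was made after the values were seen. The sets also differ in level. Among the genes tested, the median was 2236 CPM under 1000 bases, 407 CPM from 1000 to 2000 bases and 356 CPM from 2000 to 4000 bases. The other genes of at least 100 CPM had medians of 148 to 331 CPM in the classes of length. Whether level has a part in these correlations was not tested. The 32 short transcripts summed to 44044, 55055 and 103493 CPM in TSA replicates 1 to 3, against 115939, 52568 and 88116 CPM in control replicates 1 to 3. The 13 long ones summed to 7231, 7729 and 8698 CPM in TSA replicates 1 to 3, against 10998, 5376 and 8929 CPM in control replicates 1 to 3, a range of 2.05 times, whereas the short ones spanned 2.63 times.

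Of the 45 genes with an annotated position, 32 have a promoter window in RefSeq (GRCm38.p6, 250 bases before to 50 after a start). These were searched on both strands for the cores bound by factors known to act on respiratory genes: GCGCATG for NRF1, CCGGAAG for ETS factors such as GABP, and AAGATGGC for YY1, of which the last 2 can overlap by the letters AAG. The NRF1 core was in 8 of the 32 windows (25.0%), against 5.26% of the 18842 windows of all genes of the table and 9.95% of those of the 1246 other genes of at least 100 CPM. The ETS core was in 10 (31.2%, against 12.4% and 28.2%) and the YY1 core in 2 (6.25%, against 3.5% and 8.51%). At least 1 of the 3 was in 15 of 32 (46.9%, against 19.1% and 41.3%), so that the shares of the ETS and YY1 cores were close to those of other abundant genes. A match describes the letters of a window, and binding was not measured. The stretches around the cores of a gene of each complex and of Cycs are shown as examples of where the cores lie. They are written 5′ to 3′ along the gene, with the cores in capitals. In Atp5g2, Atp5k and Cox6a1 the NRF1 core lies on both strands at overlapping positions.
Cycs, chr6:50566602-50566648, minus strand: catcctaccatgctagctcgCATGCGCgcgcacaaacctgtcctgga
Uqcr11, chr10:80406861-80406907, minus strand: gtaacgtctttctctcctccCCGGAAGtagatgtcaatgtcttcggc
Cox5b, chr1:36691416-36691462, plus strand: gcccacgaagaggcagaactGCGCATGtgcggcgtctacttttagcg
Cox6a1, chr5:115348959-115349140, minus strand: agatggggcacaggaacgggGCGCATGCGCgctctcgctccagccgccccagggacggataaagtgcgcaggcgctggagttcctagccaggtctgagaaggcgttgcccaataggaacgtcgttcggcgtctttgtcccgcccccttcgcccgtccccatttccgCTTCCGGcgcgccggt
Atp5k, chr5:108434420-108434469, minus strand: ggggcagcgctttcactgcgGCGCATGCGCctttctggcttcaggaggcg
Atp5g2, chr15:102671060-102671109, minus strand: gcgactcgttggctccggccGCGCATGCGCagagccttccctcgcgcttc
Atp5h, chr11:115419931-115419977, minus strand: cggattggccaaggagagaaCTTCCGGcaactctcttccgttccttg
The NRF1 core began 59 bases before the start in Cycs, 51 before it in Cox5b, 50 in Atp5k and 42 in Atp5g2. Uqcr11 has an ETS core 66 bases before the start and also an NRF1 core across the start, beyond the stretch shown. The short genes Uqcr10, Cox7a2, Cox7c and Atp5g1, and Atp5b, held none of the 3 cores in their windows.

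In complex III, 7 of 9 genes had a log2 fold change below 0 and none passed the test. The summed level was 10574, 12924 and 25744 CPM in TSA replicates 1 to 3, against 29128, 13337 and 20586 CPM in control replicates 1 to 3, a mean of 16414 ± 8165 CPM in TSA-treated cones and 21017 ± 7904 CPM in the controls (SD, n = 3 each), with a log2 ratio of -0.36. It was -0.12 without TSA replicate 1, -0.07 without control replicate 1 and -0.90 without TSA replicate 3. The highest library was a control and the lowest a TSA library, but TSA replicate 3 lay above control replicates 2 and 3. Uqcrq (ENSMUSG00000044894, chr11:53427922-53430831 in GRCm38, minus strand), which encodes a small membrane subunit, had 3404, 4681 and 10674 CPM in TSA replicates 1 to 3, against 11333, 4747 and 8087 CPM in control replicates 1 to 3. Its highest and lowest library were control replicate 1 and TSA replicate 1, and the groups overlapped (log2 fold change -0.37 ± 0.49 (SE), unadjusted p = 0.479). Uqcr10, a small membrane subunit, had 2300, 2692 and 5636 CPM in TSA replicates 1 to 3, against 6277, 3032 and 4011 CPM in control replicates 1 to 3. Uqcr11, the smallest subunit, had 1085, 1385 and 3510 CPM in TSA replicates 1 to 3, against 3721, 1458 and 2258 CPM in control replicates 1 to 3. In both, TSA replicate 3 reached the level of the high controls and control replicate 2 lay near TSA replicates 1 and 2. Uqcrh, the acidic hinge protein that aids the docking of cytochrome c on cytochrome c1, had 1561, 1332 and 2699 CPM in TSA replicates 1 to 3, against 3778, 1765 and 2587 CPM in control replicates 1 to 3, with overlapping groups and a log2 fold change of -0.54 ± 0.41 (unadjusted p = 0.231). Uqcrb, the remaining small subunit, gave -0.48 ± 0.39.

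The larger proteins of complex III differed among themselves. They are cytochrome c1 (Cyc1) and the Rieske iron-sulfur protein (Uqcrfs1), both of which carry electrons, and the core proteins Uqcrc1 and Uqcrc2, which face the matrix. Together they summed to 1210, 1488 and 1227 CPM in TSA replicates 1 to 3, against 1334, 932 and 1660 CPM in control replicates 1 to 3. This sum spanned 1.78 times over the libraries, against 2.97 times for the sum of the 5 small subunits, and the means were 1308 ± 156 CPM in TSA-treated cones and 1309 ± 364 CPM in the controls. Cyc1 (chr15:76343523-76346260) had 112, 225 and 303 CPM in TSA replicates 1 to 3, against 506, 226 and 516 CPM in control replicates 1 to 3. As in the small subunits, TSA replicate 3 and control replicates 1 and 3 were its highest libraries. Control replicates 1 and 3 were above every TSA library and control replicate 2 was level with TSA replicate 2, at a log2 fold change of -0.96 ± 0.60 (unadjusted p = 0.154), the lowest value among the genes without a library at 0. Uqcrfs1 had 595, 483 and 473 CPM in TSA replicates 1 to 3, against 378, 206 and 522 CPM in control replicates 1 to 3, with a log2 fold change of 0.49 ± 0.49. Uqcrc1 gave 0.25 ± 0.52 and Uqcrc2 -0.09 ± 0.75, and the groups overlapped in all 4 genes. The smallest unadjusted p in complex III was that of Cyc1.

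Cytochrome c itself, encoded by Cycs (chr6:50562563-50566538), is the mobile carrier between complexes III and IV, and is also known for its release from mitochondria in apoptosis. It had 541, 472 and 872 CPM in TSA replicates 1 to 3, against 1111, 509 and 790.4 CPM in control replicates 1 to 3. The 3 libraries with the highest values were again control replicate 1, TSA replicate 3 and control replicate 3. The means were 628 ± 214 CPM in TSA-treated cones and 804 ± 301 CPM in the controls (SD, n = 3 each), with a log2 fold change of -0.35 ± 0.46 (unadjusted p = 0.468).

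In complex IV, 13 of 15 genes tested had a log2 fold change below 0 and none passed the test. The summed level was 21844, 28154 and 48247 CPM in TSA replicates 1 to 3, against 54629, 25952 and 46157 CPM in control replicates 1 to 3, with means of 32748 ± 13788 CPM in TSA-treated cones and 42246 ± 14733 CPM in the controls (SD, n = 3 each) and a log2 ratio of -0.37. It was -0.15 without TSA replicate 1, -0.16 without control replicate 1 and -0.81 without TSA replicate 3. Cox8a (chr19:7215153-7217616), a small membrane subunit, was the most abundant of the complex per kb and had 4984, 6389 and 10190 CPM in TSA replicates 1 to 3, against 11543, 4238 and 11102 CPM in control replicates 1 to 3. TSA replicate 3 and control replicates 1 and 3 had 10190 CPM or more, and the other 3 libraries 6389 CPM or less (log2 fold change -0.32 ± 0.44, unadjusted p = 0.488). Cox6c, a small subunit of the membrane part, had 2603, 4160 and 5503 CPM in TSA replicates 1 to 3, against 6579, 4627 and 6242 CPM in control replicates 1 to 3. Only TSA replicate 3 lay above a control library, replicate 2. Its log2 fold change was -0.51 ± 0.33 (unadjusted p = 0.166). Cox7a2, the widely expressed isoform of subunit 7a, had 2166, 3514 and 4562 CPM in TSA replicates 1 to 3, against 5534, 4138 and 5355 CPM in control replicates 1 to 3, a log2 fold change of -0.55 ± 0.33 with the smallest unadjusted p of the complex (0.135). Here too TSA replicate 3 alone lay above control replicate 2. Cox5a and Cox5b, which sit on the matrix side, gave 0.07 ± 0.57 and -0.40 ± 0.46, and Cox7c gave -0.27 ± 0.43.

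**Figure D3:**
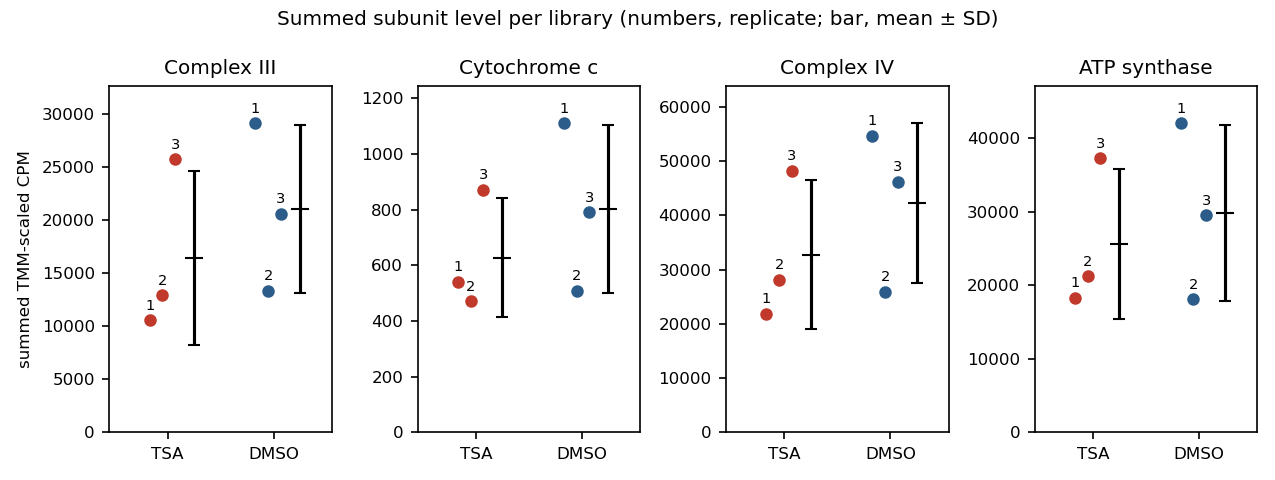
Summed TMM-scaled CPM of complex III, cytochrome c, complex IV and the ATP synthase in each library (points with the replicate number, TSA left of control), with the mean and SD of each group (3 libraries). In all 4 panels the groups overlap, control replicate 1 is the highest point, and TSA replicate 3 lies above the other TSA libraries.

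Several subunits of complex IV have more than 1 gene, with an isoform known from many tissues and one known from heart and muscle or testis. Their shares of the summed level per kb of a family show which form these cones held. Cox4i1, the common form of subunit 4, made up at least 99.98% of its family in every library, and Cox4i2, a form known from lung and linked to low oxygen, was at 0 counts in 4 of 6 libraries. Cox7b made up 100% of its family, with Cox7b2 at 0 counts, and Cox8c was at 0 counts too. Both are known from testis. Under sampling of reads alone, a count of 0 in a library would allow up to 3 counts. The libraries varied more than that, with a common dispersion of 2.16, so a 0 does not set that bound here.

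The muscle form of subunit 6a was nevertheless abundant. Cox6a2 (chr7:128205435-128206387) had 867, 1447 and 2219 CPM in TSA replicates 1 to 3, against 2761, 1478 and 2491 CPM in control replicates 1 to 3, and its partner Cox6a1 had 3581, 3758 and 8222 CPM in TSA replicates 1 to 3, against 8756, 2668 and 6725 CPM in control replicates 1 to 3. Per kb, the share of Cox6a2 in the family was 16.9, 24.4 and 18.5% in TSA replicates 1 to 3 and 20.9, 31.7 and 23.7% in control replicates 1 to 3. The mean share was 19.9 ± 3.97% in TSA-treated cones and 25.5 ± 5.61% in the controls (SD, n = 3 each), and the groups overlapped. The log2 fold changes were -0.57 ± 0.43 for Cox6a2 (unadjusted p = 0.229) and -0.22 ± 0.51 for Cox6a1 (unadjusted p = 0.673).

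The other minor isoforms were low and uneven between libraries. Cox8b, the heart and muscle form of subunit 8, had 26.1, 24.7 and 79.9 CPM in TSA replicates 1 to 3, against 250.2, 0 and 242 CPM in control replicates 1 to 3. It was thus at 0 in control replicate 2 and above every TSA library in the other 2 controls, and its log2 fold change of -1.91 ± 1.92 (unadjusted p = 0.366) rests on that pattern. Without control replicate 2 it was -2.50 at an unadjusted p of 0.0295. Cox6b2, a form known from testis, had 60.0, 40.0 and 153 CPM in TSA replicates 1 to 3, against 70.3, 0 and 89.0 CPM in control replicates 1 to 3, also with 0 in control replicate 2. Its share of the family was 3.94, 2.44 and 4.45% in TSA replicates 1 to 3 and 1.97, 0 and 2.86% in control replicates 1 to 3, the rest being Cox6b1, which had 1947, 2129 and 4360 CPM in TSA replicates 1 to 3, against 4648, 1948 and 4021 CPM in control replicates 1 to 3. Cox7a1, the heart and muscle form of subunit 7a, had 19.5, 26.5 and 0 CPM in TSA replicates 1 to 3, against 0, 50.9 and 0 CPM in control replicates 1 to 3, at 0 in 3 libraries. Cox7a2l, a relative of subunit 7a known for joining complexes III and IV into supercomplexes, had 303, 142 and 221 CPM in TSA replicates 1 to 3, against 462, 172 and 218 CPM in control replicates 1 to 3. The groups overlapped for all of these genes, and Cox6b2, Cox7a1 and Cox7a2l had unadjusted p-values of 0.738, 0.963 and 0.588. Of the genes tested, 4 of 42 (9.52%) had a library at 0 counts, against 37.9% of all genes tested.

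**Figure D4:**
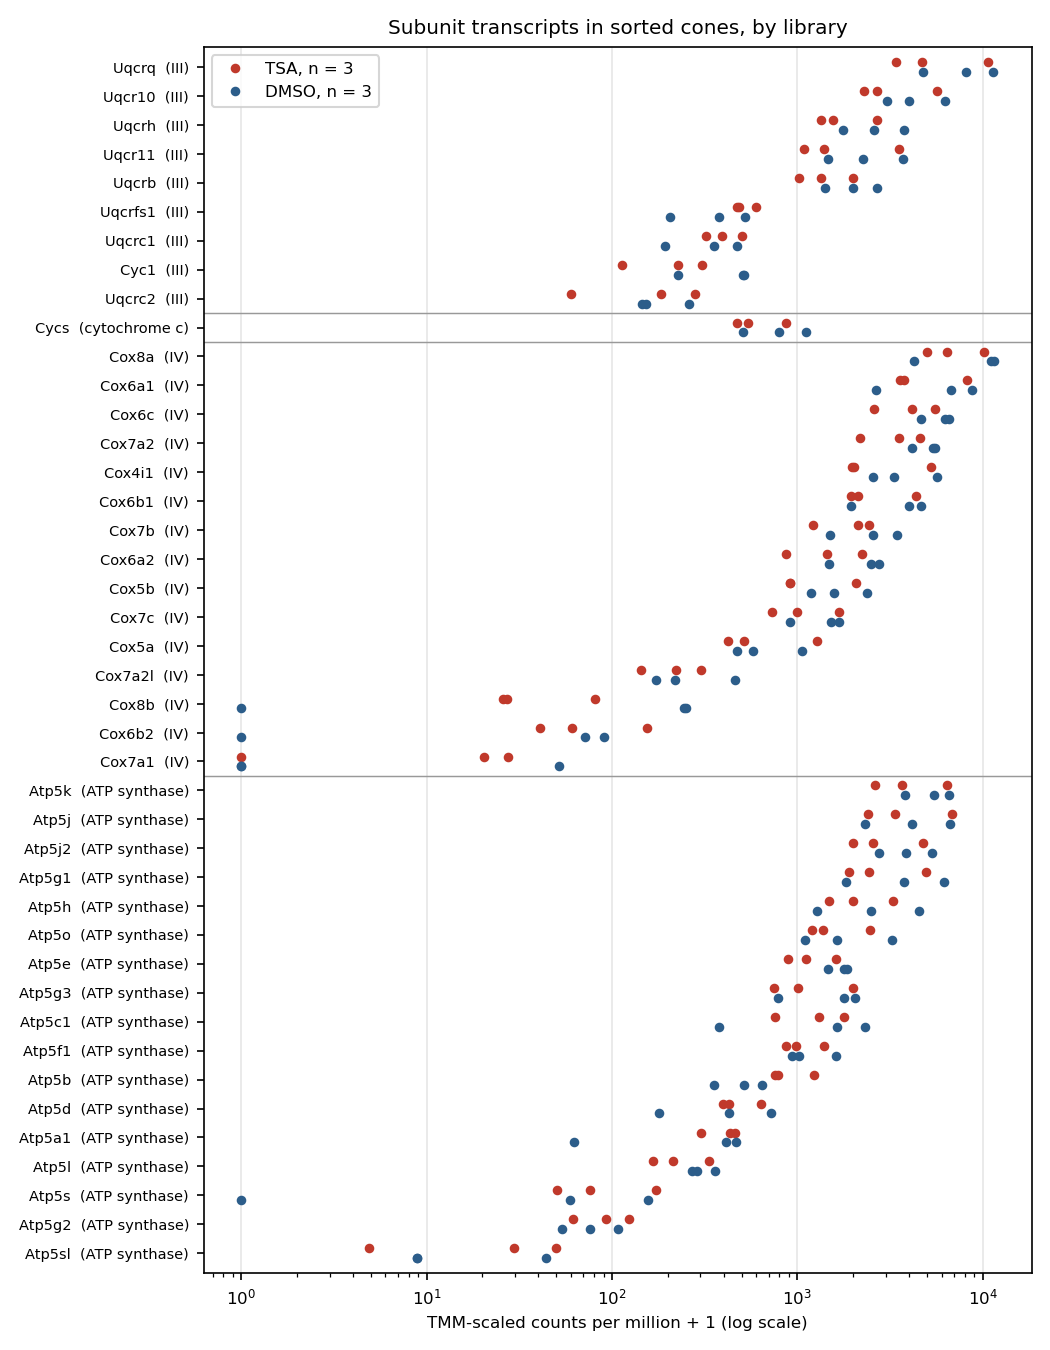
TMM-scaled CPM (plus 1, log scale) of the 42 genes tested in each library (red, TSA, above blue, control; 3 libraries each), by complex and by mean level. The points of the groups overlap in each gene except Atp5b, and Cox8b, Cox6b2, Cox7a1 and Atp5s have libraries at 0 counts, drawn at 1.

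In the ATP synthase, 11 of 17 genes had a log2 fold change below 0. The summed level was 18316, 21234 and 37328 CPM in TSA replicates 1 to 3, against 42070, 18145 and 29511 CPM in control replicates 1 to 3, with means of 25626 ± 10239 CPM in TSA-treated cones and 29909 ± 11967 CPM in the controls (SD, n = 3 each) and a log2 ratio of -0.22. It was -0.03 without TSA replicate 1, 0.09 without control replicate 1 and -0.65 without TSA replicate 3. The enzyme has a catalytic head, F1, of alpha, beta, gamma, delta and epsilon subunits, and a membrane part with the c ring, joined by a peripheral stalk. The 5 subunits of the head summed to 3836, 3922 and 5105 CPM in TSA replicates 1 to 3, against 5448, 2789 and 4969 CPM in control replicates 1 to 3, with TSA replicate 3 and control replicates 1 and 3 again highest, but alpha and beta departed from this order. Atp5b (ENSMUSG00000025393, chr10:128083273-128090391, plus strand), the catalytic beta subunit, had 753, 1226 and 788 CPM in TSA replicates 1 to 3, against 517, 354 and 645 CPM in control replicates 1 to 3. Every TSA library was above every control library, and the log2 fold change was 0.87 ± 0.43, at an unadjusted p of 0.0801 and an adjusted p of 0.611 by the test of edgeR. This gene was singled out after its values were seen, being the only 1 of 42 whose groups did not overlap, a share of 2.38% beside the 3.19% of genes of at least 100 CPM. By edgeR it was at an unadjusted p of 0.0283 with the libraries scaled by their totals alone and of 0.0479 with a filter of over 10 CPM in at least 3 libraries. No other alternative put Atp5b at 0.05 or less. With DESeq2 size factors the unadjusted p by edgeR was 0.0954, and with upper quartile factors 0.0564. Atp5a1, the alpha subunit, had 457, 434 and 302 CPM in TSA replicates 1 to 3, against 61.6, 412 and 468 CPM in control replicates 1 to 3. Control replicate 1 stood far below the other 5 libraries, whereas it was the highest library for most of the genes, and the log2 fold change was 0.34 ± 0.74 (unadjusted p = 0.66). Atp5c1 (gamma), Atp5d (delta) and Atp5e (epsilon) gave -0.17 ± 0.65, 0.15 ± 0.59 and -0.50 ± 0.34.

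The c ring, which turns as protons pass, is built of 1 protein that 3 genes encode with different import sequences. Atp5g1 had 1906, 2420 and 4940 CPM in TSA replicates 1 to 3, against 6155, 1827 and 3765 CPM in control replicates 1 to 3. Atp5g3 had 1003, 742 and 1992 CPM in TSA replicates 1 to 3, against 2034, 788 and 1785 CPM in control replicates 1 to 3, and Atp5g2 had 91.7, 60.4 and 123 CPM in TSA replicates 1 to 3, against 52.8, 75.5 and 107 CPM in control replicates 1 to 3. Atp5g1 was the main source per kb, with 66.5, 77.5 and 73.0% in TSA replicates 1 to 3 and 77.7, 70.6 and 69.7% in control replicates 1 to 3. The mean share of Atp5g1 was 72.3 ± 5.56% in TSA-treated cones and 72.7 ± 4.35% in the controls, and that of Atp5g2 was 3.13 ± 1.03% in TSA-treated cones and 2.51 ± 1.53% in the controls (SD, n = 3 each). The order Atp5g1, Atp5g3, Atp5g2 was the same in all 6 libraries. The log2 fold changes were -0.34 ± 0.53, -0.30 ± 0.51 and 0.23 ± 0.87, with the groups overlapping in each.

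The peripheral stalk keeps the head from turning with the ring. Of its subunits, Atp5j (coupling factor 6) had 2403, 3357 and 6819 CPM in TSA replicates 1 to 3, against 6680, 2320 and 4171 CPM in control replicates 1 to 3, and Atp5h (subunit d) had 1471, 2002 and 3298 CPM in TSA replicates 1 to 3, against 4507, 1279 and 2480 CPM in control replicates 1 to 3. Both were highest in control replicate 1 or TSA replicate 3 and gave log2 fold changes of -0.07 ± 0.51 and -0.29 ± 0.51, and that of Atp5j was 0.06 with upper quartile factors or with library totals alone. Atp5f1 (subunit b) and Atp5o (the oligomycin sensitivity-conferring protein) gave -0.14 ± 0.38 and -0.25 ± 0.49. Atp5k, the small subunit e that takes part in the pairing of the enzymes in the membrane, had 2624, 3670 and 6445 CPM in TSA replicates 1 to 3, against 6601, 3816 and 5431 CPM in control replicates 1 to 3, with a log2 fold change of -0.32 ± 0.39 (unadjusted p = 0.444). Subunits f (Atp5j2) and g (Atp5l) gave -0.36 ± 0.41 and -0.36 ± 0.54. Atp5s, known as factor B and no part of the isolated enzyme core, had 49.5, 75.4 and 172 CPM in TSA replicates 1 to 3, against 155, 58.4 and 0 CPM in control replicates 1 to 3, with 0 in control replicate 3 and overlapping groups (unadjusted p = 0.809). Atp5sl, which is counted with the ATP synthase by its symbol alone, was the least abundant of the 42 per kb, at 3.86 to 48.6 CPM.

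The differences were also viewed against transcript length, since the genes varied together by length over the libraries. The 29 genes tested with a reference transcript under 1000 bases had a median log2 fold change of -0.32 with 25 below 0, the 10 of 1000 to 2000 bases a median of -0.11 with 6 below 0, and the 3 of 2000 to 4000 bases a median of 0.34 with 1 below 0. The other genes of at least 100 CPM had medians of -0.22 (466 genes, 66.7% below 0), 0.04 (581 genes, 48.2%) and -0.01 (379 genes, 51.2%) in the same classes, and -0.41 (167 genes, 65.3%) from 4000 bases on. Short transcripts of other genes thus also lay below 0 more often than those of the next classes. These are descriptions, and whether length, level or the recovery of short transcripts has a part in the values was not tested.

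**Figure D5:**
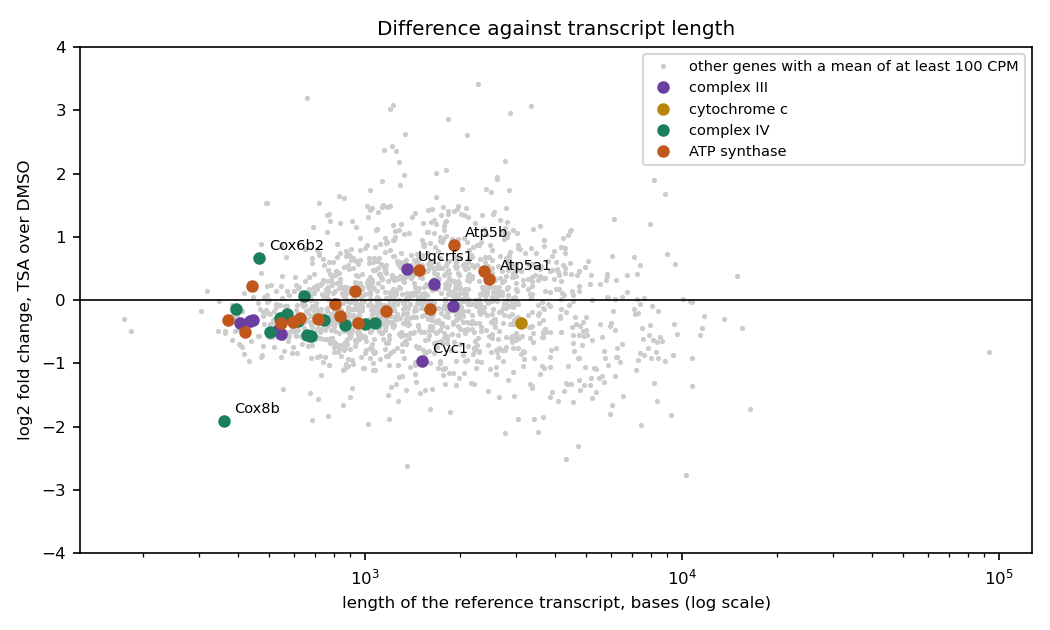
Log2 fold change of TSA over control (y axis) against the length of the reference transcript (x axis, log scale) for the 42 genes tested (coloured by complex) and the other genes of at least 100 CPM (grey; 5 lie beyond the axis). The short transcripts cluster just below 0, and Atp5b, Uqcrfs1 and Atp5a1 lie above 0 among the longer ones.

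Partners of these subunits outside the list were viewed in the same way. Of the 6 subunits encoded in the mitochondrial genome, mt-Cytb, the cytochrome b of complex III, had 7252, 8247 and 8298 CPM in TSA replicates 1 to 3, against 10590, 6993 and 10198 CPM in control replicates 1 to 3, and mt-Co1, the catalytic subunit of complex IV, had 1453, 1638 and 1825 CPM in TSA replicates 1 to 3, against 1784, 1248 and 1981 CPM in control replicates 1 to 3. Their log2 fold changes were -0.22 ± 0.24 and -0.03 ± 0.32, with overlapping groups. The counts of mt-Co2, mt-Co3, mt-Atp6 and mt-Atp8 were at most 93 in any library, far below the other 2. Near-identical nuclear copies of mitochondrial genes make all 6 uncertain. Ndufa4, a further subunit of complex IV, had 3962, 6465 and 7238 CPM in TSA replicates 1 to 3, against 10619, 5086 and 8921 CPM in control replicates 1 to 3 (log2 fold change -0.48 ± 0.35, unadjusted p = 0.216).

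All 6 complex III assembly genes were tested. At the unadjusted threshold of 0.05, beside 8.02% of all genes tested higher and 2.3% lower, 1 was higher and none lower. It was Bcs1l, which inserts the Rieske protein, with 506, 160 and 0 counts in TSA replicates 1 to 3, against 0 in every control library (unadjusted p = 0.0292, adjusted p = 0.405 by edgeR). Of the 26 complex IV assembly genes, 21 were tested, and beside the same shares 1 was higher and none lower. It was Cox11, a copper-delivery factor, with 156, 153 and 1 counts in TSA replicates 1 to 3, against 0, 0 and 1 in the controls (unadjusted p = 0.0121, adjusted p = 0.405 by edgeR). Both were thus absent or nearly so from TSA replicate 3 as well. None of the 6 further ATP synthase subunits and factors, of the 4 complex II subunits and of the 8 tested of 13 regulators of respiratory gene transcription passed an unadjusted p of 0.05. Beside these lists too stand the 8.02% and 2.3% of all genes tested. All TSA libraries were below all controls for Gabpb1, 1 of the 8 regulators, and for Tmem70, 1 of the 6 ATP synthase genes. Among the 21 complex IV assembly genes this held for 2, and 1 had all TSA libraries above. The complex III assembly and complex II lists had 0 of either kind. Beside these stand 3.7% below and 6.39% above over all genes tested. The factors whose cores were searched were low, with Nrf1 at 51.3, 0.075 and 0.264 CPM in TSA replicates 1 to 3, against 0.632, 48.4 and 115 CPM in control replicates 1 to 3, Gabpa at 0.69, 27.7 and 6.78 CPM in TSA replicates 1 to 3, against 1.36, 9.30 and 0 CPM in control replicates 1 to 3 and Yy1 at 21.2, 18.97 and 0.088 CPM in TSA replicates 1 to 3, against 25.4, 5.12 and 14.02 CPM in control replicates 1 to 3. Gabpb1 had 21.7, 34.9 and 0.088 CPM in TSA replicates 1 to 3, against 87.9, 46.1 and 99.6 CPM in control replicates 1 to 3 (log2 fold change -2.04 ± 1.67, unadjusted p = 0.276 by edgeR). The 36 Nduf genes tested, subunits of complex I, held 1 gene higher at that threshold (unadjusted p = 0.0339 by edgeR) and none lower. For 1 of the 36 all TSA libraries were above all controls (2.78%, beside 6.39% of all genes tested). Their median log2 fold change was -0.27 with 26 below 0 (72.2%), close to the median of -0.31 and the 76.2% of complexes III, IV and the ATP synthase. A difference between these sets was not tested.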

How the data were processed

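RNA-seq was measured in 6 libraries of sorted cones, 3 treated with TSA and 3 with DMSO, and samples were grouped by the title and treatment labels. The authors trimmed single reads of 75 bases, mapped these with STAR 2.5.4a on GRCm38, and obtained a count for each gene from Subread 1.6.0. The protocol used 17 PCR cycles for cDNA, 11 for the libraries, and no molecular identifiers. The deposited table holds raw counts. A second deposited table holds only the authors' own comparison (differences of group means, test statistics and p-values) and was not used.

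Genes over 1 CPM in at least 2 libraries of a group were kept (9621 of 46078). In R 4.3.3, TMM factors and glmQLFit and glmQLFTest of edgeR 4.0.16 gave a two-sided quasi-likelihood test of treatment, and p-values were adjusted by Benjamini-Hochberg over every gene tested. The common dispersion was 2.16 and the smallest adjusted p of all genes 0.405. The 402 rows without a symbol held at most 0.0555% of the counts of a library. Standard errors come from the coefficients of the fit, and summed levels, isoform shares, correlations and motif shares are descriptions with no test. Positions and transcript lengths are from GENCODE M21, which held 45229 of the 46078 gene IDs (98.2%), with 1 reference transcript per gene, and promoter windows from RefSeq. The fit was also run on simulated counts, with set changes larger than any fitted difference of the genes described here. That run does not measure how small a change could be found in these genes.

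The genes, the lists beside them and the tests were chosen with earlier results of these data known. The text names the 4 genes of highest level per kb in each complex, Cycs and Cyc1, those at an unadjusted threshold of 0.05, the isoform families, genes with a library at 0 and another over 100 CPM, the mitochondrially encoded subunits and the genes of other lists past that threshold. The complex I gene past that threshold is counted but not named. The remaining genes are given by fitted values, and Atp5b, Gabpb1, Tmem70 and some marker genes were named after their values were seen. Alternatives were DESeq2 size factors, upper quartile factors, library totals alone, 3 other filters, DESeq2 1.42.0, limma 3.58.1 (trend, and voom with quality weights), the newer quasi-likelihood method of edgeR, the replicate number as a block, and each library left out.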

Additional observations from a re-analysis of the deposited data

How the results depend on the processing

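With 3 libraries a group and a common dispersion of 2.16, single libraries decided several values, and the cause of the changes below was not tested. No alternative called a gene of the set at an adjusted p under 0.05. At an unadjusted p of 0.05 or less, 1 gene was higher with library totals alone (Atp5b, beside 8.17% of all genes), 1 without a filter on low counts (Cox4i2, which the filter removes, beside 5.79%) and 1 with over 10 CPM in at least 3 libraries (Atp5b, beside 2.28%), and 9 were lower by limma-voom with quality weights (Atp5e, Atp5j2, Atp5k, Cox6a2, Cox6c, Cox7a2, Cyc1, Uqcrb and Uqcrh, beside 2.8% of all genes and 4.14% of the others of at least 100 CPM). With library totals alone, 3 genes had all TSA libraries below all controls, beside 3.07% of all genes. Library totals and upper quartile factors put the median of all genes at 0.14 and 0.13, where the median of the set was -0.19 and -0.18. Limma-voom put it at 0.58 and limma-trend at 0.36, where the set was at -0.57 and -0.30. Leaving out each library in turn gave 0 to 10 genes lower (beside 1.5 to 2.39% of all genes), 0 to 15 genes with all TSA libraries below the controls (beside 6.59 to 10.4%), 1 to 2 with all above (beside 9.76 to 15.5%), and medians of -0.72 to -0.05 (beside -0.34 to 0.05 for the other genes of at least 100 CPM). The most extreme of these came without TSA replicate 3 and without control replicate 1. The log2 ratio of summed levels ran over -0.90 to -0.07 in complex III, -0.72 to -0.07 in cytochrome c, -0.81 to -0.15 in complex IV and -0.65 to 0.09 in the ATP synthase.

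Of the values of single genes under an alternative, 402 kept direction and side of the threshold, 17 passed it and 23 changed sign. Atp5j was at 0.062 with upper quartile factors and 0.061 with library totals, Cox7a1 at 5.23 by limma-voom, 1.98 by limma-trend and 2.29 with the block, and Cox8b at 0.17 by limma-voom and 0.79 by limma-trend. Over the libraries left out, signs changed for Atp5g1 (-0.92 to 0.13), Atp5g2 (-0.082 to 0.45), Atp5h (-0.73 to 0.25), Atp5j (-0.67 to 0.35), Atp5s (-0.28 to 1.67), Cox4i1 (-1.002 to 0.053), Cox6a1 (-0.77 to 0.14), Cox6b2 (-0.11 to 1.18), Cox7a1 (-0.83 to 10.6), Cox7a2l (-0.65 to 0.16) and Uqcr11 (-1.07 to 0.082).

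The labels number the replicates of both groups, but same-numbered libraries deviated from their group means with correlations of only -0.01, 0.07 and 0.03, so the numbers were not taken as pairs. With the replicate block, the median of the set was -0.31, and 0 genes were higher and 0 lower, beside 511 and 110 of all genes, against 772 and 221 without it. Of the TSA libraries, replicate 2 correlated best with the control of its own number, replicate 1 with control replicate 2 and replicate 3 with control replicate 1.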
